A study of Mus musculus with 9 samples.

Results

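The subcortical maternal complex and the cytoplasmic lattice of the oocyte were followed through 9 genes, Nlrp5, Ooep, Tle6, Khdc3, Padi6, Nlrp2, Nlrp14, Nlrp4f and Zbed3. They were chosen by name, as the rows of the deposited gene tables that carry these symbols, and are 9 of the 55487 rows. RNA-seq was carried out on 9 ovary libraries from C57BL/6 mice. Postnatal days 8, 50 and 65 are each represented by 3 libraries. All libraries carry the same genotype, an oocyte-specific knock-in of PIK3CA*, and the series calls the tissue tumor samples. PIK3CA encodes a catalytic subunit of PI 3-kinase. The labels do not name the promoter that drives the knock-in or explain the asterisk, and a control genotype was not analysed here. The only labelled difference between the libraries is therefore age, and changes with normal ovarian growth and changes with the genotype cannot be told apart. The labels number the libraries of an age but do not tie them to separate animals. The p-values below thus reflect only how these libraries vary, and that variation may be technical.

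The proteins of these genes are stored in the growing oocyte and used by the early embryo. NLRP5 (also called MATER), OOEP (FLOPED), TLE6 and KHDC3 (FILIA) form the core of the subcortical maternal complex, a large assembly under the cell surface of mouse eggs, and ZBED3 is a further component that helps to place the spindle in the zygote. PADI6 is a member of the peptidylarginine deiminase family and is needed to build the cytoplasmic lattices, fibrous arrays that hold maternal proteins and ribosomal material. NLRP2, NLRP14 and NLRP4F are NLR family proteins of the oocyte that associate with the complex or the lattices.

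All 9 rows passed the filter on low counts, which left 17747 genes. The libraries held between 14116908 and 18868831 expected counts each. Levels are given below as CPM, the count scaled to the size of the library, after TMM scaling, which sets the libraries to a common scale. Levels of different genes are compared as TPM, which also divides by length. Ribosomal protein genes took 10.3% to 13.3% of the counts at day 65 and 3.20% to 3.76% at day 50. At day 8 they took 11.8% in replicate 1, and 4.60% and 6.09% in the other libraries. The summed level of 12 markers of growing oocytes was 2940 to 3063 CPM in the day 8 libraries. It was 97.1 to 143 CPM at day 50 and overlapped with the 41.2 to 114 CPM of day 65. Gdf9 alone had 42.9, 35.5 and 49.7 CPM in day 65 replicates 1 to 3, most of the sum in replicates 1 and 2. The overlap thus says little about the other markers. In whole tissue, fewer oocytes and less RNA per oocyte cannot be told apart. Granulosa cell markers went the other way: their sum was 860 to 1297 CPM at day 8, and it reached 7752 to 9104 CPM at day 50 before 3990 to 4423 CPM at day 65. Inha, at 3149 ± 411 CPM, and Inhba, at 2715 ± 340 CPM (SD, n = 3), made up most of the day 50 sum. Of these 10 markers, 8 were called higher at day 50 than at day 8, beside 19.5% of all genes tested. None was at 0 in all libraries of an age. From day 50 to day 65, 5 of them were lower and 1 was higher, beside 28.4% and 27.5% of all genes tested. The part of cell composition and of the ribosomal protein share in the changes below was not tested.

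The sequence before the transcription start is shown for the lattice gene Padi6 and for the 3 NLR genes whose RefSeq start lies outside the annotated body of the gene. Each line is the 150 bases before the start, read on the gene's strand from RefSeq on GRCm38.p6. Capitals mark the motif CANNTG, the E-box letters, which read the same on both strands. FIGLA, an oocyte transcription factor, is known to bind E-boxes before oocyte genes.
Padi6, chr4:140742644-140742793, minus strand: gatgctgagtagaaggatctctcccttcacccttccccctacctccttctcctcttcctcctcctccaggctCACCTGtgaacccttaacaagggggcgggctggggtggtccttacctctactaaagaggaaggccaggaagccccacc
Nlrp5, chr7:23385739-23385888, plus strand: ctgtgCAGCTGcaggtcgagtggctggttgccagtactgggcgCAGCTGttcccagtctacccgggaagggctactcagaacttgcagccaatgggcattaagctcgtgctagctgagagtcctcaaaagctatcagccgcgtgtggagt
Nlrp4f, chr13:65205717-65205866, minus strand: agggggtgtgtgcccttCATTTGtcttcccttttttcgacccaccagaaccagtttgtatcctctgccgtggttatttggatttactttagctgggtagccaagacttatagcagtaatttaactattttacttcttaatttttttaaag
Nlrp2, chr7:5351036-5351185, minus strand: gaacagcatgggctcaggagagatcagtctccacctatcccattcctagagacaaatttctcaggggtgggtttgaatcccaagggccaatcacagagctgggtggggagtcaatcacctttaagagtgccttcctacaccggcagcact

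The motif begins 78 bases before the start of Padi6, 107 and 145 bases before that of Nlrp5, and 133 bases before that of Nlrp4f. No match stands in the window of Nlrp2, which says only that these letters are not in it. Of the 9 genes, 8 had at least 1 RefSeq start window, and 11 of their 12 windows held CANNTG within 250 bases. The motif is common: 66.2% of all 32851 windows of that length hold it, so a match is a description and not a binding site.

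The question put to the libraries of day 50 and day 8 was how the RNA of each gene changed between the young and the adult ovary. All 9 genes were lower at day 50 by edgeR's quasi-likelihood test, where 21.4% of all 17747 genes tested were called lower, 19.5% higher and 40.9% in either direction. Their median log2 fold change was -5.18, beside -0.04 for all genes tested. In each of the 9 genes, all day 50 libraries lay below all day 8 libraries, as they did in 29.0% of all genes tested.

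**Figure D1:**
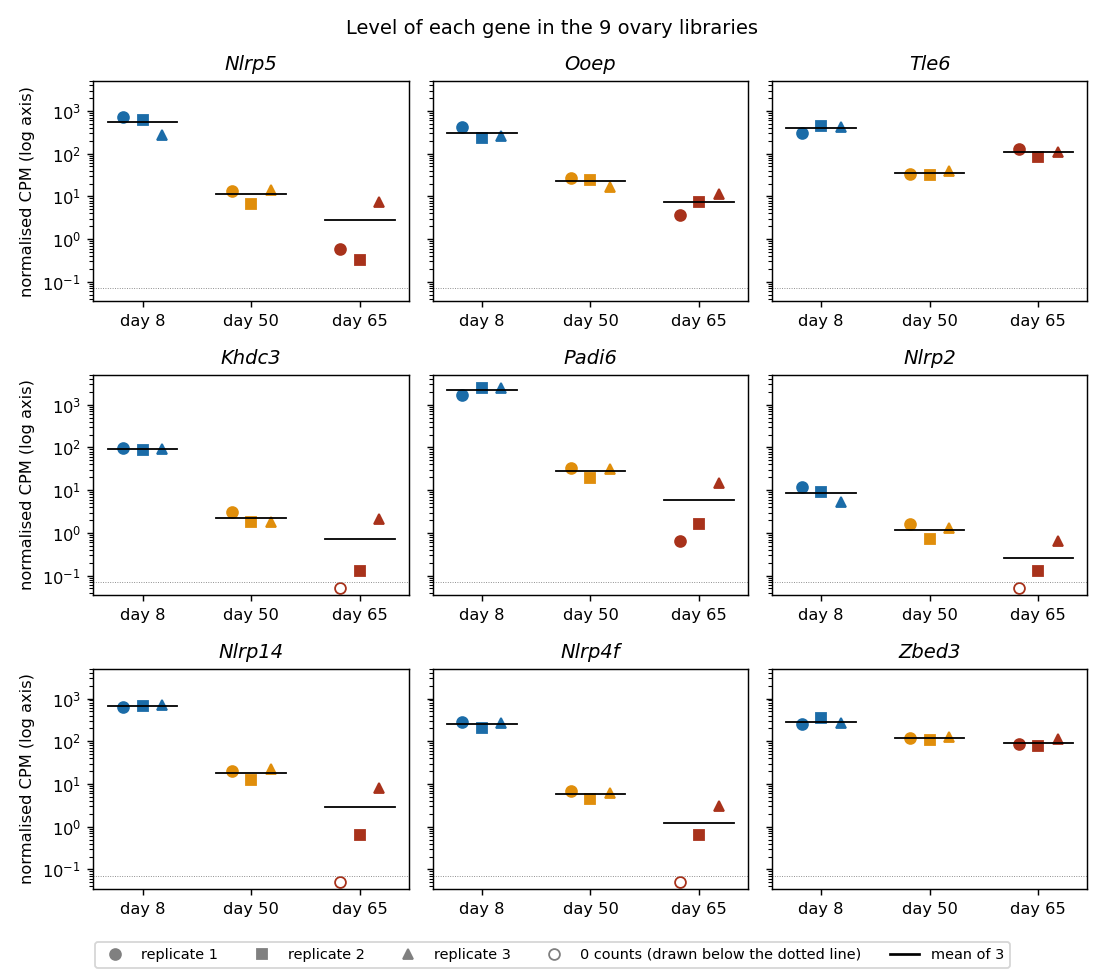
Normalised CPM on a log axis for each gene in each library, with 1 panel per gene, symbols for replicates 1 to 3 and a line at the mean of 3 libraries. Every gene falls from day 8 to day 50, Tle6 lies higher again at day 65, and 4 genes have 0 counts in day 65 replicate 1 (open symbols).

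Padi6, the lattice gene, was the most abundant of the 9 at day 8, at 1646 ± 695 TPM (SD, n = 3). Its level was 1655, 2472 and 2508 CPM in the 3 day 8 libraries and 32.4, 18.8 and 32.1 CPM at day 50. The day 65 libraries had 0.663, 1.63 and 14.9 CPM. The ages formed separate ranges, and replicate 3 of day 65 stood above the other two. From day 8 to day 50 it fell by 6.31 on the log2 scale (SE 0.918, edgeR adjusted p = 0.000469), the largest fall of the 9. Padi6 lies on chromosome 4 (140727355 to 140742643, minus strand, GRCm38), and none of its 50-base stretches are shared with another annotated gene.

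Among the core genes of the complex, Nlrp5 (chromosome 7, 23385889 to 23441922) had 726, 613 and 270 CPM in the day 8 libraries and 13.2, 6.46 and 14.2 CPM at day 50. The day 65 libraries had 0.580, 0.327 and 7.41 CPM. The day 8 libraries differed most from each other here, replicate 3 being the lowest, yet all stood far above day 50. The log2 fold change from day 8 to day 50 was -5.57 (SE 0.855, edgeR adjusted p = 0.000656). Nlrp5 shares 6.55% of its 50-base stretches with 3 other rows. One of these, the pseudogene Nlrp5-ps, had 1.16, 1.83 and 1.38 CPM at day 65, above Nlrp5 itself in replicates 1 and 2, so the lowest Nlrp5 values are uncertain.

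Ooep (chromosome 9, 78376109 to 78378725), which encodes a small KH-domain protein, had 422, 237 and 259 CPM at day 8 and 27.3, 23.6 and 16.3 CPM at day 50. The day 65 libraries had 3.64, 7.19 and 11.3 CPM. The 3 ages did not overlap. It fell by 3.77 on the log2 scale from day 8 to day 50 (SE 0.388, edgeR adjusted p = 5.59e-05).

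Khdc3 (chromosome 9, 73101836 to 73104438), also of the KH-domain family, was the most even of the core genes within day 8, at 96.3, 86.0 and 93.0 CPM. The day 50 libraries had 3.03, 1.84 and 1.83 CPM, and those of day 65 had 0, 0.131 and 2.07 CPM. The first drop separated the ages, whereas the day 65 range reached into that of day 50. The log2 fold change to day 50 was -5.36 (SE 0.602, edgeR adjusted p = 9.59e-05). The row is uncertain in its split of reads: Gm20509, on the opposite strand, overlaps 38.5% of the Khdc3 exon bases and shares 34.1% of its 50-base stretches. Gm20509 went from 26.1 ± 2.31 CPM at day 8 to 0.804 ± 0.759 CPM at day 50 (SD, n = 3).

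Tle6 (chromosome 10, 81590904 to 81601073), a member of the Groucho co-repressor family that acts in the egg as a scaffold of the complex, departed from this pattern. It had 312, 441 and 422 CPM at day 8 and 33.5, 31.9 and 39.5 CPM at day 50. The day 65 libraries had 129, 82.8 and 107 CPM. Day 50 was the low point, and all day 65 libraries lay between the other ages. The log2 fold change was -3.49 from day 8 to day 50 (SE 0.213, edgeR adjusted p = 2.39e-06).

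Zbed3 (chromosome 13, 95325237 to 95337841) encodes a zinc-finger protein that also binds axin, a scaffold of WNT signalling. It had 258, 346 and 265 CPM at day 8 and 122, 110 and 124 CPM at day 50. The day 65 libraries had 86.1, 77.0 and 113 CPM. Its libraries were close together within each age and day 8 stood apart. The log2 fold change to day 50, -1.29 (SE 0.177, edgeR adjusted p = 0.000291), was the smallest of the 9.

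The NLR genes covered a wide span of levels. Nlrp14 (chromosome 7, 107166990 to 107198102), which in mice is needed for early embryo development, had 640, 665 and 690 CPM at day 8 and 20.2, 12.1 and 22.8 CPM at day 50. The day 65 libraries had 0, 0.653 and 7.92 CPM. Nlrp4f (chromosome 13, 65177111 to 65205716), a gene of the rodent-expanded Nlrp4 cluster, had 274, 208 and 261 CPM, then 6.80, 4.51 and 6.00 CPM, then 0, 0.653 and 2.99 CPM. Nlrp2 (chromosome 7, 5298547 to 5351035), a maternal-effect gene in mice, had 11.7, 9.12 and 5.39 CPM, then 1.60, 0.723 and 1.27 CPM, then 0, 0.131 and 0.632 CPM. None of the 3 had overlapping libraries between ages, and Nlrp2 was the lowest of all 9 genes at every age. The log2 fold changes to day 50 were -5.18 for Nlrp14 (SE 0.862, edgeR adjusted p = 0.00105), -5.42 for Nlrp4f (SE 0.576, edgeR adjusted p = 6.77e-05) and -2.86 for Nlrp2 (SE 0.598, edgeR adjusted p = 0.00358). Nlrp4f shares 5.95% of its 50-base stretches with other rows, Nlrp4a and Nlrp4g among them. The 3 genes and Khdc3 had 0 counts in day 65 replicate 1, which allows a level of up to 0.248 CPM there (3 counts). Such limits cover counting error only, since the reads carry no molecular identifiers.

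**Figure D2:**
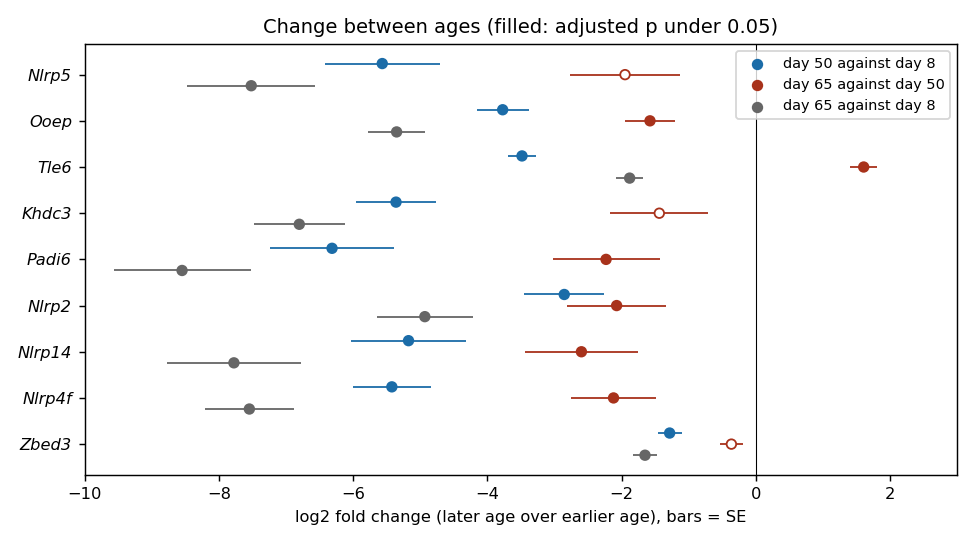
The log2 fold change of each gene between ages with its SE from the edgeR fit, filled where the adjusted p was under 0.05. All 9 genes lie below 0 for both comparisons with day 8, and Tle6 alone lies above 0 between day 50 and day 65.

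From day 50 to day 65, 5 of the 9 genes fell and Tle6 rose, where 28.4% of all genes tested were called lower, 27.5% higher and 55.9% in either direction by the same test. The share of the 9 called in either direction was thus not far above the background. Their median log2 fold change was -1.95, beside -0.06 for all genes. Libraries of day 65 lay wholly below those of day 50 in the same 5 genes, and in 34.9% of all genes tested.

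Ooep was the most stable of the genes that fell in this interval, with a log2 fold change of -1.58 (SE 0.377, edgeR adjusted p = 0.00553). Padi6 changed by -2.23 (SE 0.796, edgeR adjusted p = 0.0356), Nlrp14 by -2.60 (SE 0.838, edgeR adjusted p = 0.0235), Nlrp4f by -2.12 (SE 0.628, edgeR adjusted p = 0.0160) and Nlrp2 by -2.08 (SE 0.735, edgeR adjusted p = 0.0337). Over the 3 day 65 libraries these 4 genes had 293 counts of Padi6, 148 of Nlrp14, 62 of Nlrp4f and 13 of Nlrp2, beside 351 of Ooep. Each of the 4 calls was lost when certain single libraries were left out. Ooep was the only gene still called lower without day 50 replicate 1, or without day 65 replicate 2. Without day 50 replicate 3 there were 2, and without day 65 replicate 1 there were 3. Leaving out day 8 replicate 1 or day 50 replicate 2 lost the call of Padi6 alone.

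Nlrp5, with a log2 fold change of -1.95 (SE 0.818, edgeR adjusted p = 0.0652), and Khdc3, at -1.44 (SE 0.727, edgeR adjusted p = 0.116), were not called, and their day 65 libraries overlapped those of day 50. Zbed3, at -0.37 (SE 0.175, edgeR adjusted p = 0.0973), was not called either.

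Tle6 rose by a log2 fold change of 1.60 (SE 0.199, edgeR adjusted p = 0.000147), from 35.0 ± 4.04 CPM to 106 ± 23.1 CPM (SD, n = 3). It was higher in 3 of 3 day 65 libraries than in any of day 50. The share of all genes separated upward in this way was not counted, but 27.5% were called higher. The transcripts behind the row also shifted. The length of Tle6, weighted by the authors' estimate over its 14 annotated transcripts, was 1160, 1232 and 1219 bases in the day 8 libraries, 931, 941 and 994 bases at day 50, and 843, 801 and 725 bases at day 65. The 3 ages did not overlap in this measure, which was chosen after the values were seen. Shorter transcripts thus made up more of the Tle6 signal at the later ages. Among the other genes, the mean weighted length of Nlrp4f also went down, from 2572 to 2288 and 1412 bases over the 3 ages (with 0 counts behind 1 of the day 65 values), whereas that of Padi6 was 2331, 2318 and 2333 bases. Over all genes, an average of effective length with TPM as weights came to 1650 to 1750 bases at day 50 and 1071 to 1195 bases at day 65, and 1203, 1700 and 1564 bases in the day 8 libraries. The part of this shift in the Tle6 values was not tested.

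Day 65 replicate 3 decided how large these falls were. It was the highest of the 3 day 65 libraries for 8 of the 9 genes, all but Tle6, and for 12 of 12 growing oocyte markers, against 30.9% of all genes tested. Its level over the mean of the other two libraries was 31.6 times for Khdc3, 24.3 times for Nlrp14, 16.3 times for Nlrp5 and 13.0 times for Padi6, but 2.09 times for Ooep, 1.38 times for Zbed3 and 1.01 times for Tle6. The egg coat gene Zp3 had a ratio of 27.6 in the same comparison. Of the 10 early oocyte and germ cell markers, 5 were highest in replicate 3.

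Without that library, 8 genes were called lower at day 65 than at day 50. The log2 fold change of Nlrp5 became -4.66 (edgeR adjusted p = 0.000660), that of Padi6 -4.55 (edgeR adjusted p = 0.000141) and that of Zbed3 -0.54 (edgeR adjusted p = 0.0293). Khdc3 had 2 counts in the remaining 2 libraries against 122 at day 50, a ratio of 30.3 in CPM (exact 95% interval 8.21 to 253). Nlrp2 likewise had 2 counts against 66, a ratio of 16.4 (4.36 to 138). Both intervals pool the counts of the libraries. They cover counting error only and leave out the spread between libraries. With all 3 day 65 libraries, Khdc3 was not called (edgeR adjusted p = 0.116). Tle6 stayed higher, with a log2 fold change of 1.60 (edgeR adjusted p = 0.000599).

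**Figure D3:**
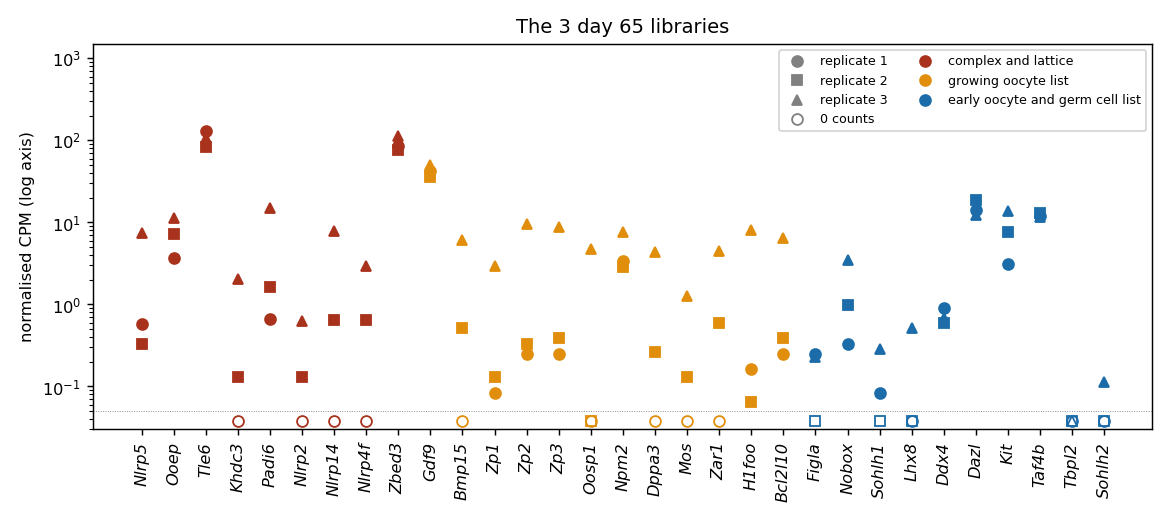
Normalised CPM on a log axis in the 3 day 65 libraries for the 9 genes, 12 growing oocyte markers and 10 early oocyte and germ cell markers; open symbols are 0 counts. Replicate 3 (triangles) is highest for 8 of the 9 genes and all 12 growing oocyte markers, whereas Tle6 and Zbed3, like Gdf9, lie close together in the 3 libraries.

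Over the whole interval from day 8 to day 65, all 9 genes were lower, where 32.6% of all genes tested were called lower, 29.7% higher and 62.3% in either direction. Their day 65 libraries all lay below their day 8 libraries, as in 34.7% of all genes tested. The median log2 fold change of the 9 was -6.80, beside -0.05 for all genes. The range ran from Padi6 at -8.55 (SE 1.02, edgeR adjusted p = 6.70e-05) through Nlrp14 at -7.78, Nlrp4f at -7.55 and Nlrp5 at -7.52 to Tle6 at -1.88 (SE 0.199, edgeR adjusted p = 2.80e-05) and Zbed3 at -1.65 (SE 0.179, edgeR adjusted p = 3.19e-05). This comparison shares its libraries with the other ones and is no separate evidence. With day 65 replicate 3 left out, as with any other single library, all 9 genes were still called lower at day 65 than at day 8.

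The unequal changes turned over the make-up of the set. In TPM, the order at day 8 was Padi6, Tle6, Nlrp14, Zbed3, Nlrp5, Ooep, Nlrp4f, Khdc3 and Nlrp2. The neighbours Zbed3, at 257 ± 96.9 TPM, Nlrp5, at 242 ± 99.2 TPM, and Ooep, at 227 ± 8.41 TPM (SD, n = 3), differed by less than their spread. At day 50 Zbed3 led with 116 ± 9.94 TPM, ahead of Tle6 with 70.6 ± 7.22 TPM, Padi6 with 22.1 ± 6.32 TPM and Ooep with 19.3 ± 4.62 TPM. Padi6 and Ooep did not differ there beyond their spread. At day 65 Tle6 led with 150 ± 29.5 TPM and Zbed3 followed with 51.4 ± 14.3 TPM. Ooep was next at 3.78 ± 2.27 TPM, and the 6 other genes had means from 0.0867 to 2.77 TPM.

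Tle6 and Zbed3 together made up 21.6% to 24.4% of the summed TPM of the 9 genes in the day 8 libraries. Their part was 70.6% to 76.5% at day 50 and then 91.7% to 99.0%. Padi6 went from 37.2% to 49.8% at day 8 down to 0.134% to 2.68% at day 65. The other 7 genes summed to between 3826 and 4291 CPM at day 8, between 68.0 and 105 CPM at day 50, and 4.89, 10.7 and 47.2 CPM in the 3 day 65 libraries.

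**Figure D4:**
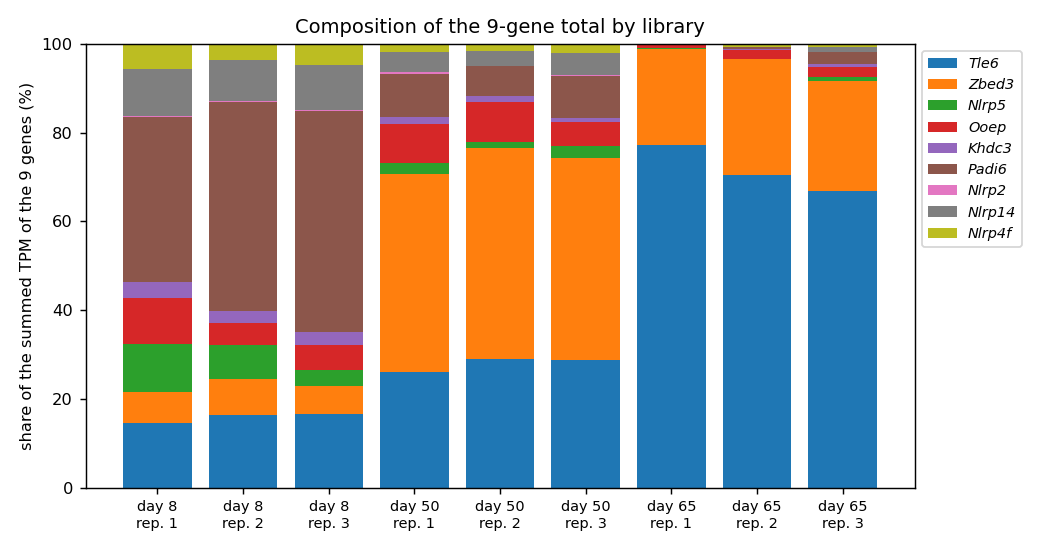
Share of the summed TPM of the 9 genes, in percent, taken by each gene in each library, stacked to 100. Padi6 is the largest share in every day 8 library, Zbed3 in every day 50 library and Tle6 in every day 65 library.

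Since the oocyte markers were lower at the later ages too, each gene was also set against the growing oocyte list, as the log2 ratio of its CPM to the geometric mean of the 12 markers in the same library, with 0.5 CPM added to both. These ratios were not tested. They are not levels per oocyte, because reads from other cells of the ovary count in them too. A ratio rises wherever the list falls more than the gene. Which cells gave the reads of each gene, Zbed3 and Tle6 included, was not tested. Ooep stood above the list at every age, with mean log2 ratios of 1.28 ± 0.152 at day 8, 1.31 ± 0.516 at day 50 and 1.85 ± 0.980 at day 65 (SD, n = 3). Padi6 stood 4.16 ± 0.633 above the list at day 8, 1.61 ± 0.171 at day 50 and 0.75 ± 0.471 at day 65. Nlrp14 likewise went from 2.45 ± 0.341 to 1.02 ± 0.212 and -0.24 ± 0.660, and Nlrp5 from 2.02 ± 0.688 to 0.31 ± 0.329 and -0.06 ± 0.395. In Padi6, Nlrp14 and Nlrp5 the ratios of the day 8 libraries all lay above those of day 50. How often this holds over all genes was not counted.

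Zbed3 moved the other way, from 1.24 ± 0.498 to 3.72 ± 0.174 and 5.51 ± 1.29. Tle6 was level with the list between the first ages, at 1.67 ± 0.570 and 1.97 ± 0.198, and reached 5.71 ± 1.58 at day 65. Nlrp2 also moved upward relative to the list, from -3.78 ± 0.438 to -2.45 ± 0.168 and -1.50 ± 0.960. Nlrp4f went from 1.02 ± 0.181 to -0.54 ± 0.0879 and -0.67 ± 0.546, and Khdc3 from -0.40 ± 0.230 to -1.75 ± 0.319 and -1.11 ± 0.279. The day 8 and day 50 libraries did not overlap in the ratios of Zbed3, Nlrp2, Nlrp4f and Khdc3, again without a count over all genes. The added 0.5 CPM weighs heavily on the ratios of genes with few counts at day 65. It also weighs on the list there, as most of its genes were under 0.5 CPM in replicates 1 and 2. All day 65 ratios depend on it, those of Tle6 and Zbed3 included.

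**Figure D5:**
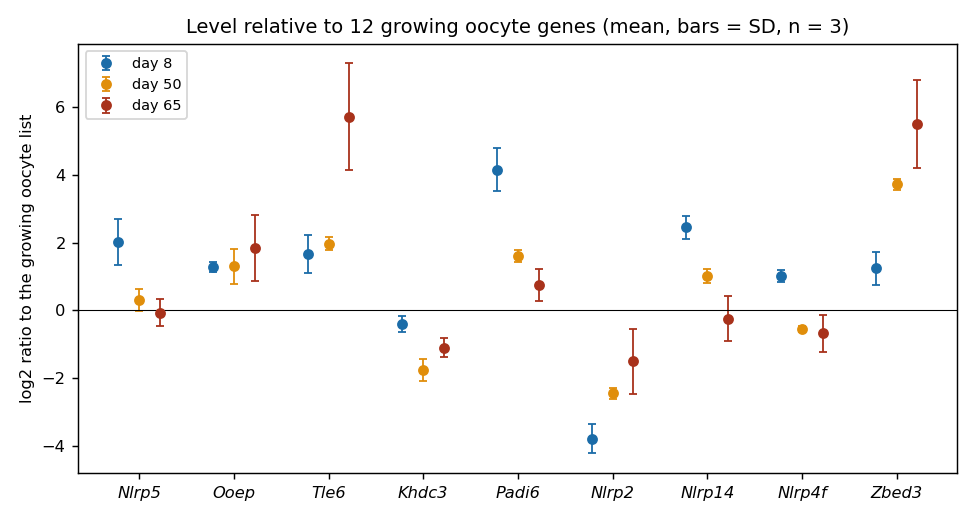
Mean log2 ratio of each gene to the geometric mean of 12 growing oocyte markers at each age, with bars of 1 SD (n = 3). Padi6, Nlrp5, Nlrp14, Nlrp4f and Khdc3 have lower mean ratios after day 8. Within day 50 Zbed3 stands furthest above the list, and within day 65 Tle6 does.

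Most partner genes of the complex and lattice were also lower at day 50. Of 17 partner genes tested, 15 were called lower at day 50 than at day 8, beside 21.4% of all genes tested. The median log2 fold change of the 17 was -2.62. Most of the 17 are Fbxw genes, so the count and the median rest largely on that family. The list mixes genes such as Uhrf1, at 100 CPM in day 65 replicate 1, with genes such as Fbxw20, at 0 there. Which cells the reads came from was not tested. Uhrf1, a regulator of DNA methylation whose cytoplasmic pool in the oocyte is bound by the complex, went from 328 ± 67.4 CPM to 55.5 ± 6.08 CPM (log2 fold change -2.56, edgeR adjusted p = 5.50e-06). Dnmt1, the maintenance DNA methyltransferase, went from 368 ± 82.1 CPM to 100 ± 13.2 CPM (-1.87, edgeR adjusted p = 8.61e-05). Fbxw20 and Fbxw26, from a cluster of F-box genes of the oocyte, had log2 fold changes of -3.63 and -3.74. The F-box genes of this cluster are close relatives, so reads may be split unevenly between them.

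From day 50 to day 65, 7 of the 17 partners were called lower and 3 higher, a share close to the 55.9% of all genes called in either direction. Fbxw20 changed by -2.41, Fbxw26 by -2.37 and Fbxw18 by -2.61, and Spin1, which encodes a histone reader abundant in oocytes, by -0.76 (SE 0.14, edgeR adjusted p = 0.00136). Cfl1, the actin-severing protein cofilin, rose by 1.43 (SE 0.25, edgeR adjusted p = 0.000864), from 841 ± 38.7 to 2269 ± 706 CPM. Cfl1 is made in most cells, and 16.5% of its exon bases overlap Snx32 on the opposite strand. Uhrf1, named here after its values were seen, rose from 55.5 to 100 ± 12.7 CPM (log2 fold change 0.86, edgeR adjusted p = 0.00235).

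Of 16 other NLRP genes listed, 12 were tested. From day 8 to day 50, 4 were called lower, beside 21.4% of all genes tested: Nlrp4c, Nlrp4g, Nlrp4a and Nlrp4b, all of the Nlrp4 cluster. Nlrp4c, for example, went from 17.9 ± 2.86 CPM to 0.302 ± 0.199 CPM (log2 fold change -5.84, edgeR adjusted p = 7.94e-06). Nlrp9b, Nlrp4e and Nlrp9a, at -1.69, -1.54 and -1.37, were not called. Their day 50 libraries nevertheless all lay below those of day 8, as in 29.0% of all genes tested. Of these, Nlrp9b and Nlrp9a are not genes of the Nlrp4 cluster. Nlrp6, also outside that cluster, went the other way. All its day 50 libraries lay above those of day 8, but it was not called (1.42, edgeR adjusted p = 0.108). Nlrp10, an NLR gene outside that cluster, rose from 9.44 ± 4.74 CPM to 33.7 ± 0.411 CPM (1.83, edgeR adjusted p = 0.00287) and fell again to 12.8 ± 4.77 CPM at day 65 (-1.40, edgeR adjusted p = 0.00798). Between day 50 and day 65, 6 of the 12 fell, beside 28.4% of all genes tested, among them Nlrp4e at -3.08 and Nlrp4a at -2.73. Genes of the Nlrp4 cluster share sequence, so reads may be split unevenly between them.

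Paralogs of the 9 genes did not move as a block. Of 16 tested, 6 were called lower and 5 higher at day 50 than at day 8, beside 21.4% and 19.5% of all genes tested. Their median log2 fold change was -0.14, beside -0.04 for all genes. The lower ones included Dppa5a, a KH-domain gene expressed in germ and pluripotent cells, with 88.7 ± 49.8 CPM and then 1.54 ± 0.109 CPM (log2 fold change -5.84, edgeR adjusted p = 3.81e-05), and Khdc1a at -4.48. Padi2, a deiminase of many tissues, went from 8.55 ± 1.40 CPM to 0.534 ± 0.202 CPM (-3.99, edgeR adjusted p = 5.54e-05). The Groucho genes differed: Tle4 changed by -1.70 (edgeR adjusted p = 2.42e-05), and Tle2 by 1.83 (edgeR adjusted p = 5.24e-05). Between day 50 and day 65, 5 paralogs fell and 3 rose. These counts lie near or below the 28.4% of all genes called lower and the 27.5% called higher. Among the Groucho relatives of Tle6, Tle4 and Tle1 fell, at -0.87 and -0.60, whereas Aes rose from 683 ± 33.2 to 1359 ± 438 CPM (0.99, edgeR adjusted p = 0.00694). Tle2, at 0.11, and Tle3, at 0.01, were not called. Aes and Tle3 were named after their values were seen.

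Across the 9 libraries, the mean standardised log2 level of the 9 genes had the highest correlations, among 12363 genes that averaged 5 CPM or more, with Oas1c, Hsf2bp, Gng3, Patl2, Igf2bp2, Nr6a1, Ccno, Kif24, Nobox and Pls1. Pearson's r ran from 0.991 to 0.998 over these 10. The measure follows the difference between day 8 and the later ages, which the libraries share, and is a description only. Oas1c, for example, had 133 ± 9.33, 6.42 ± 0.969 and 2.79 ± 3.26 CPM at the 3 ages in turn. Nobox, a homeobox transcription factor of the oocyte, had 151 ± 32.4, 3.34 ± 1.10 and 1.60 ± 1.68 CPM (SD, n = 3). Within the set, the r of each gene with the mean of the other 8 was 0.946 to 0.996, except for Tle6 at 0.604.

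Among the growing oocyte markers themselves, 9 of 12 were called lower at day 50 than at day 8, beside 21.4% of all genes tested. Their median log2 fold change was -3.68, beside -0.04 for all genes. From day 50 to day 65, 4 fell and 1 rose, near the 28.4% of all genes called lower and below the 27.5% called higher. The gene that rose, Gdf9, which encodes a growth factor secreted by the oocyte, had 353 ± 52.3, 30.1 ± 5.80 and 42.7 ± 7.09 CPM, a log2 fold change of 0.51 in the second interval (SE 0.188, edgeR adjusted p = 0.0412). Of the 10 early oocyte and germ cell markers, 9 fell at first, beside the same 21.4% of all genes tested. In the second interval 3 fell, again near the 28.4% of all genes called lower. Dazl, which encodes an RNA-binding protein of the germ line, rose in that interval from 3.65 ± 1.25 to 15.2 ± 3.38 CPM (2.05, edgeR adjusted p = 0.000135). Figla, the E-box factor named above, had 61.3 ± 10.7, 0.125 ± 0.109 and 0.159 ± 0.138 CPM at the 3 ages (SD, n = 3). Tbpl2, the oocyte TATA-binding protein relative, had 0 counts in all day 65 libraries.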

How the data were processed

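The 9 libraries were grouped by labelled age. Expected counts in the deposited gene tables are RSEM estimates by the authors, per the file headers, and carry no normalization. The deposited TPM adjusts them for effective length and makes each library sum to the same total. The deposited FPKM, per length and mapped fragments, was not used. The deposited length column, in bases, gave the weighted transcript length of Tle6 and Padi6, and the effective length gave the mean over all genes per library. The build is GRCm38 (mm10) per the submitters' processing notes. No source used here gives the aligner, the software versions or the strand setting, so reads of genes that overlap on opposite strands cannot be told apart.

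Expected counts were rounded and analysed with edgeR 4.0.16 in R 4.3.3: filterByExpr, TMM scaling, 1 model with a term per age over all 9 libraries, robust quasi-likelihood tests, two-sided, Benjamini-Hochberg adjustment over 17747 genes, and calls at an adjusted p under 0.05. The SE is the absolute log2 fold change over the square root of F. The fit was tested on simulated data, where it recovered 92.0% of genes changed 8-fold and 41.0% of genes changed 2-fold from day 8 to day 50, and 91.0% and 45.5% from day 50 to day 65. No libraries were identical. Gene models, overlaps and shared 50-base stretches came from GENCODE M21, and promoter windows from RefSeq. Alternatives used DESeq2 1.42.0, limma 3.58.1 on log2(TPM + 0.1), other scalings and filters, a trend correction for length and GC (values for 99.8% of rows), the replicate number as a block, and leaving out each library.

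The 9 genes and the lists were chosen with earlier results of these data known. Named were the 9 genes, up to 4 called genes of smallest p per list in the main direction plus 1 in the other, and the 10 genes most like the set. Genes named outside this rule were chosen after their values were seen: Uhrf1 at day 65, Figla, Tbpl2, Zp3 at day 65, Gm20509, Nlrp5-ps, Aes and Tle3. The same holds for Inhba, Nlrp6, Nlrp9a, Nlrp9b and Nlrp4e at day 50. The cell type lists were growing oocyte, early oocyte and germ cell, granulosa cell, theca and stroma, endothelial and immune. Of the 10 theca and stroma genes, 4 were called higher and 5 lower at day 50 than at day 8. Of the 7 endothelial genes 2 were called, both higher, and of the 6 immune genes tested 3, all higher. Beside these stand the 19.5% of all genes tested that were called higher and the 21.4% called lower.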

Additional observations from a re-analysis of the deposited data

How the results depend on the processing

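All 9 genes were called lower at day 50 and at day 65 than at day 8 in each of the 19 alternatives, except that DESeq2 gave no adjusted p for Padi6 and Nlrp14. No direction reversed in the alternatives run. From day 50 to day 65, Ooep and Tle6 kept their calls in all 19, while Padi6 lost its call in 8 of 18, Nlrp2 in 6 of 19, Nlrp14 in 5 of 18 and Nlrp4f in 5 of 19. Calls were gained for Zbed3 in 4 of 19 and for Nlrp5 and Khdc3 in 2 of 19 each. The count of the 9 genes called lower in that interval was 5 in the fit reported, 2 with DESeq2, 8 with limma on TPM, 2 with no filter on low counts, 3 with only the ages compared in the model, and 1 to 8 when single libraries were left out (1 without day 50 replicate 1 or day 65 replicate 2, 8 without day 65 replicate 3). With limma on TPM, all genes called lower at day 50 than at day 8 numbered 2331 rather than 3794, those from day 50 to day 65 were 8512 lower and 1655 higher rather than 5032 and 4883, and those higher at day 65 than at day 8 were 2392 rather than 5267. The cause was not tested. The median of all genes from day 50 to day 65 was shifted by -0.79 on that scale and by -0.31 with scaling to library size only. Relative to these shifts, the log2 fold change of Tle6 was 1.86 and 1.64, and that of Zbed3 -0.41 and -0.31. With the length and GC trend removed, the rise of Tle6 was smaller, at 1.10, or 1.01 relative to the median of all genes. Zbed3 was at -0.58 relative to that median. The labels do not say whether libraries of the same number are paired. Correlations of deviations were -0.0432 to 0.0520 between same-numbered libraries and -0.106 to 0.094 between the others. With 3 libraries per age these values cannot settle it. With the replicate number as a block, Nlrp2 lost its call from day 50 to day 65 (edgeR adjusted p = 0.0558) and 4 genes were called lower. Depth limits Nlrp2, Nlrp4f, Khdc3 and Nlrp14 at day 65, where replicate 1 had 0 counts.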
